A study of Mus musculus with 3 samples.

Results

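The nuclear genes for the subunits of the mitochondrial respiratory chain and ATP synthase were described in cytosolic RNA of mouse macrophages. Members were genes with at least 1 protein-coding transcript whose symbol starts with Nduf (assembly factors of the Ndufaf series left out), Uqcr, Cox4 to Cox8 or Atp5, together with Cyc1 and Cycs. The rule gave 84 genes of the 55536 in the tables, with 83 distinct symbols because a pair of genes is named Atp5o. They fall into complex I (36 genes), complex III with cytochrome c (10 genes), complex IV (20 genes) and complex V, the ATP synthase (18 genes).

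All 3 libraries belong to 1 group: ribosome-depleted total RNA from the cytosol of bone marrow-derived macrophages of C57BL/6J mice, labelled as the 0 minute time point of treatment with lipid A (100 ng/ml), a TLR4 agonist. The labels state no genotype beyond the strain, no sex and no age. The samples are biological replicates 1, 2 and 3 with a shared donor label, and nothing separates cultures from animals, so the SDs measure a spread that may be technical. A single group offers no contrast to test, and the smallest p that an exact sign-flip test of 3 values can give is 0.25.

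Electrons enter the chain at complex I from NADH, or at complex II from succinate, pass through ubiquinone to complex III, and are carried by cytochrome c to complex IV, where oxygen is reduced. The proton gradient built on the way drives ATP synthase. The subunits come from both genomes: the mitochondrial genome encodes hydrophobic core subunits, while the nuclear mRNAs described here are translated in the cytosol and their products imported. Macrophages activated through TLR4 are known for a shift away from oxidative phosphorylation; the cells here are at the start of that time course.

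The libraries held 26318761, 41897257 and 56290298 expected counts over genes in replicates 1, 2 and 3, and the members took 0.393, 0.370 and 0.319% of them. Protein-coding genes held 26.2, 22.0 and 21.7% of TPM (an abundance per transcript length that sums to a fixed total in every library). The macrophage markers were present, 8 of 8 at a TPM of at least 1 in every library, with a median of 132 ± 10.7 TPM (SD, n = 3). Of the markers of neutrophils 1 of 6 reached that level (Ngp, 1.83 ± 0.506 TPM), and of those of B cells, T cells, red cells, fibroblasts, muscle, testis and brown fat none did.

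Transcripts of nearly all members were present. A gene was called detected when its TPM was 1 or more in all 3 libraries. By this rule 76 of 84 members were detected, beside 41.0% of the 22028 protein-coding genes. The members' median was 31.2 ± 4.85 TPM (SD, n = 3), and over the 76 detected members it was 38.6 ± 7.68 TPM, beside 7.15 ± 0.730 TPM over the 9010 detected nuclear protein-coding genes. Together the members took 1.64, 1.57 and 1.43% of the TPM of nuclear protein-coding genes. None was among the 100 most abundant nuclear protein-coding genes by mean TPM, 18 were among the first 500 and 40 among the first 1000. In bulk RNA, fewer cells expressing a gene and less RNA per cell cannot be told apart.

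By complex, the median level over all members was 24.1 ± 4.69 TPM for complex I, 39.6 ± 4.51 TPM for complex III with cytochrome c, 43.4 ± 8.84 TPM for complex IV and 50.05 ± 10.6 TPM for ATP synthase (SD of the library medians, n = 3). Complex I had the lowest median in each library. The value for complex IV rests on which genes are counted: over the 13 detected genes of complex IV the median was 77.8 ± 17.5 TPM. In shares of nuclear protein-coding TPM, complex I took 0.445 ± 0.0312%, complex IV 0.452 ± 0.0282%, ATP synthase 0.469 ± 0.0393% and complex III with cytochrome c 0.182 ± 0.0122%. In these RSEM-format values complex I was below complex IV, and complex IV below ATP synthase, in each of the 3 libraries. That order did not hold in the kallisto-format tables. There the mean shares were 0.444% for complex I, 0.449% for complex IV and 0.425% for ATP synthase.

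**Figure D1:**
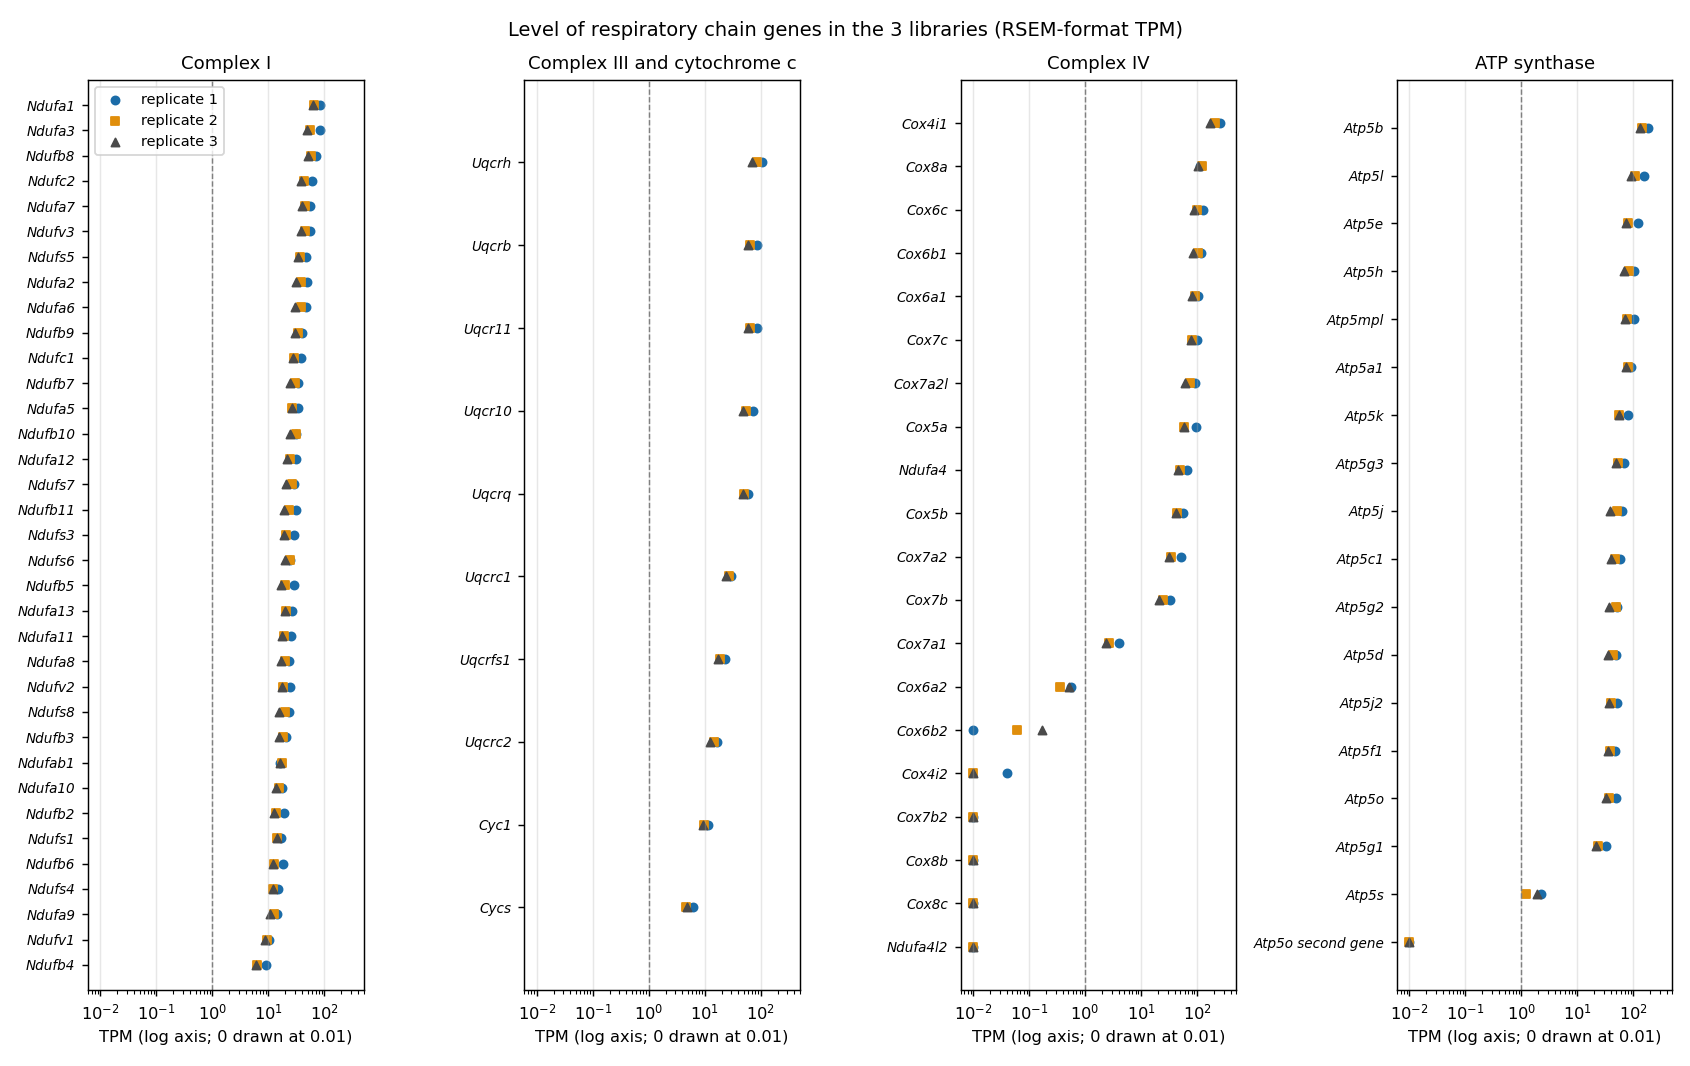
Level of 83 of the 84 genes in TPM (log axis, 0 drawn at 0.01) in the 3 libraries, by complex and ordered by mean level, with a dashed line at 1 TPM. The genes of complex I drawn lie above 1 TPM, while 7 genes of complex IV and the second gene named Atp5o lie below it.

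In complex I the subunits that carry the redox chemistry were not the most abundant transcripts. The 7 catalytic core genes had a median of 20.4 ± 3.52 TPM, and the 29 accessory genes, whose products surround and stabilise the core, had a median of 25.5 ± 4.89 TPM. The accessory median was the higher in each library, and the ranges over libraries overlapped. Ndufv1, the flavin subunit that oxidises NADH, was at 10.4, 9.36 and 8.86 TPM in replicates 1, 2 and 3. It was the lowest of the core genes in every library. Ndufs1, which forms part of the electron input arm, was at 15.0 ± 1.34 TPM, and Ndufs7, which holds the last iron-sulfur cluster before ubiquinone, at 25.2 ± 3.86 TPM. Ndufs3, Ndufv2 and Ndufs8 had means of 22.9, 19.8 and 19.7 TPM.

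Among the accessory genes of complex I the highest was Ndufa1, needed for assembly of the membrane arm, at 85.0, 66.2 and 61.6 TPM. Ndufa3 followed at 83.0, 55.0 and 49.2 TPM, and Ndufb8 at 71.6, 57.6 and 51.1 TPM. In each of these genes replicate 1 was the highest library and replicate 3 the lowest. Within a library the order of Ndufa3 and Ndufb8 changed, Ndufa3 being the higher only in replicate 1. Ndufa3-204, annotated as a nonsense-mediated decay form, held 40.6, 20.0 and 20.3 TPM of Ndufa3. The coding Ndufa3-201 held 41.8, 33.8 and 28.4 TPM, below the 70.1, 55.7 and 49.6 TPM of Ndufb8-201 in each library. At the other end, Ndufa9, at the hinge between the arms, had 14.5, 12.5 and 10.6 TPM. Ndufb4 was listed at 9.07, 6.21 and 6.01 TPM, the lowest of complex I, a value that turns on how reads are divided with a copy of the gene, described further on.

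As listed, cytochrome c and cytochrome c1 were the low end of their group. Cycs, the somatic cytochrome c, was listed at 6.17, 4.64 and 4.76 TPM, and Cyc1, the cytochrome c1 that hands electrons to it, at 11.5, 9.59 and 9.22 TPM. Both were below every other member of the group in each library. The value of Cycs depends on how reads are divided with a near-identical gene, Gm10053. The sum of the pair was 19.6, 13.6 and 13.5 TPM. It adds values taken over unlike lengths, 946 bases for Gm10053 and 3123 bases for Cycs-202, so it gives Cycs no place in the group. Uqcrfs1, the Rieske iron-sulfur protein, reached 23.5, 19.0 and 17.3 TPM. The other 7 genes of the group, the core proteins Uqcrc1 and Uqcrc2 among them, had a higher median. It was 59.3 ± 13.3 TPM, against 10.1 ± 1.25 TPM over these 3 redox carriers. Uqcrh, the hinge protein near the cytochrome c binding site, was the highest at 106, 84.6 and 68.6 TPM. Uqcrb and Uqcr11, small subunits of the complex, had means of 69.9 ± 13.3 and 69.2 ± 13.4 TPM, a gap smaller than their spread. The large core proteins Uqcrc1 and Uqcrc2 were lower, at 26.9 ± 3.00 and 14.6 ± 2.04 TPM.

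Complex IV held both the highest member and nearly all undetected ones. Cox4i1, the ubiquitous form of subunit 4, was at 259, 206 and 173 TPM, above every other member in each library. Cox8a had 115, 121 and 104 TPM, Cox6c 127, 99.9 and 90.1 TPM and Cox6b1 117, 103 and 83.4 TPM. The ranges of these 3 genes overlapped. The 11 accessory subunits in their common forms had a median of 87.2 ± 12.1 TPM, and the lowest of them was Cox7b with 26.3 ± 6.23 TPM. Ndufa4, once assigned to complex I and now placed with complex IV, had 66.1, 49.8 and 45.6 TPM.

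The choice between paralogues was the clearest pattern of complex IV. Several subunits have a second gene used in heart and skeletal muscle (Cox6a2, Cox7a1, Cox8b), in testis (Cox6b2, Cox7b2, Cox8c), or under low oxygen (Cox4i2, Ndufa4l2). Of these 8 alternative genes only Cox7a1 was detected, at 4.04, 2.63 and 2.33 TPM from 32, 40 and 46 expected counts. Its common partner Cox7a2 was at 51.2, 35.0 and 32.1 TPM, 13.2 ± 0.560-fold higher (SD, n = 3) and higher in every library. Cox6a2 had 12, 14 and 26 counts and 0.570, 0.360 and 0.510 TPM, against 102, 90.2 and 80.9 TPM for Cox6a1. The fold of Cox6a1 over Cox6a2 was 196 ± 48.3.

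The remaining 6 alternative genes had almost no reads. Cox6b2 had 0, 1 and 4 counts and Cox4i2 had 1, 0 and 0. Cox7b2, Cox8b, Cox8c and Ndufa4l2 were at 0 counts in all 3 libraries, which allows up to 3 counts in each, or 0.114, 0.0716 and 0.0533 CPM on a depth-scaled basis, for counting error only. Set against that limit in each library, Cox7b was at least 163-fold higher than Cox7b2, Cox8a at least 243-fold higher than Cox8b and at least 414-fold higher than Cox8c, and Ndufa4 at least 561-fold higher than Ndufa4l2. The markers of muscle summed to between 0 and 0.01 TPM over 5 genes, with Myh7, Actn2, Tnnt2 and Acta1 at 0 counts in each library, and the 5 testis markers were all at 0. Cox7a1 was thus measured above 1 TPM in libraries where the defining muscle markers were at or near 0.

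**Figure D2:**
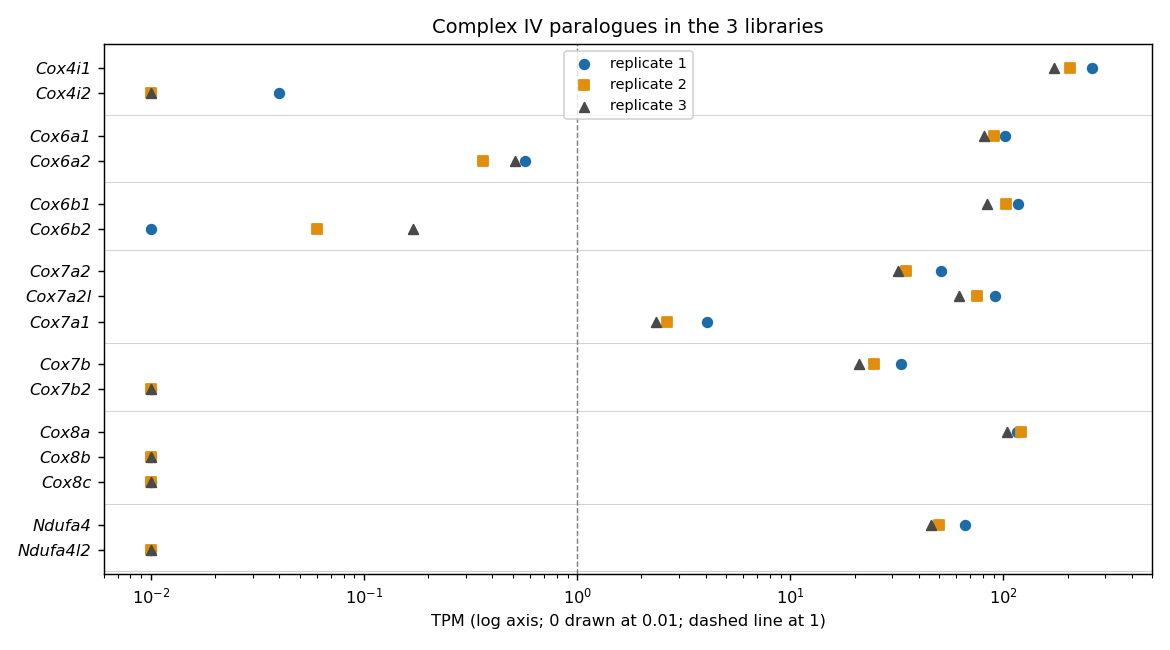
TPM (log axis, 0 drawn at 0.01) of the paralogues of each complex IV subunit in the 3 libraries, with a dashed line at 1 TPM. Each common form lies above 20 TPM and each alternative form other than Cox7a1 and Cox7a2l lies below 1 TPM.

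Cox7a2l, a relative of Cox7a2 known for linking complexes III and IV into supercomplexes, was at 91.7, 74.7 and 62.0 TPM. It exceeded Cox7a2 by 1.95 ± 0.172-fold, in 3 of 3 libraries. A single transcript, Cox7a2l-201 of 1076 bases, took 98.5% of its TPM.

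In ATP synthase the gene of the beta subunit had the highest total level in each library. Atp5b, the beta subunit that holds the catalytic sites, was at 181, 144 and 131 TPM, and Atp5a1, the alpha subunit, at 91.4, 81.5 and 75.04 TPM. Atp5b was above Atp5a1 in each library; the enzyme holds both in equal copies. Atp5b held only 54.3% of its TPM on protein-coding transcripts, 82.3 ± 13.4 TPM on Atp5b-201, a level that overlapped that of Atp5a1 and lay below the 115 ± 32.2 TPM of Atp5l-201, the coding transcript of subunit g, in each library. Of the other parts of the catalytic head and central stalk, Atp5e (epsilon) was at 121, 79.5 and 73.9 TPM, while Atp5c1 (gamma) and Atp5d (delta) had means of 48.1 ± 8.85 and 43.1 ± 7.18 TPM.

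The membrane accessory subunits had a median of 73.4 ± 15.7 TPM over 4 genes, with Atp5l (subunit g) the highest at 154, 107 and 90.4 TPM. The 5 peripheral stalk genes, counting the second gene named Atp5o at 0 counts, had a median of 40.9 ± 6.97 TPM. The highest was Atp5h (subunit d) at 84.7 ± 17.8 TPM. Atp5s, which encodes coupling factor B and is not a structural subunit, was at 2.20, 1.22 and 1.90 TPM. The second gene named Atp5o, which overlaps the first on chromosome 16, had 0 counts in each library.

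Subunit c, which forms the rotating ring of ATP synthase, is made from 3 genes whose precursors differ mainly in the targeting sequence. Atp5g3 was at 68.0, 52.2 and 49.2 TPM, Atp5g2 at 52.1, 49.3 and 37.1 TPM and Atp5g1 at 32.7, 23.7 and 21.3 TPM. Atp5g3 exceeded Atp5g1 by 2.20 ± 0.112-fold, in 3 of 3 libraries. By these values Atp5g3 made up 43.97 ± 2.07%, Atp5g2 36.0 ± 2.96% and Atp5g1 20.0 ± 1.24% of subunit c transcripts. The place of Atp5g2 is uncertain, because the RSEM-format and kallisto-format tables put it far apart: in the kallisto format it was at 3.50, 2.64 and 2.36 TPM and made up 7.38 ± 0.765% of the 3. The ratio of Atp5g3 to Atp5g1 was the same in both, 1.13 on the log2 scale.

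The sequence of Atp5g2 was set beside those of the other genes for subunit c and of an annotated copy. The part of this copy in the difference between the 2 estimates was not tested. The last 90 coding bases before the stop codon are given for the 3 genes and for Gm10175, an annotated transcribed processed pseudogene at chr7:23946646-23947290 (mm10, minus strand). Sequences are read 5′ to 3′ from the GENCODE M21 transcripts, and capitals mark bases that differ from Atp5g2.
Atp5g1: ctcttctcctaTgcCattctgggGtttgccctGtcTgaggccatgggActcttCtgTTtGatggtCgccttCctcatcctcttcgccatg
Atp5g2: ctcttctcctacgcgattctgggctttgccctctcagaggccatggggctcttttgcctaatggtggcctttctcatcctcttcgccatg
Atp5g3: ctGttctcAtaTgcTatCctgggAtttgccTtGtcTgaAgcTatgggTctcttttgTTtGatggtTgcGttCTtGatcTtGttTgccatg
Gm10175: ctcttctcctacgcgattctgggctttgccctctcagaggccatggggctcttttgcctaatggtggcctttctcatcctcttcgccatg
Atp5g1 differed from Atp5g2 at 12 of these 90 bases and Atp5g3 at 23, so reads over this stretch can be told apart among the 3 genes. Gm10175 differed at 0, and the whole of its 645-base transcript matched Atp5g2 at 100% identity.

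For 4 members such copies were assigned counts equal to over 5% of the member's own. The search used only the leading transcript of each member, that with the highest mean TPM in the RSEM format. For Ndufa5, Ndufab1, Ndufc1, Ndufs4, Atp5f1 and Atp5j this transcript is not annotated as protein-coding, so copies of their coding transcripts could be missed. Of the 76 detected members, 34 had at least 1 annotated pseudogene with 90% identity or more over at least 100 bases and at least 50% of the pseudogene transcript, 102 pseudogenes in all. In 29 of these 34 members the pseudogenes were assigned counts equal to under 1% of the member's own. For Ndufa12 (3.32%) and Atp5l (1.60%) the share lay between 1 and 5%. The pseudogenes were assigned over 5% for Ndufb4, Atp5g2 and Cox7c. In each of these 1 processed pseudogene was identical to the member over the pseudogene's full length. Among matching genes annotated as protein-coding, only Gm10053, a copy of Cycs, passed 5%. These 4 members are described here because of that value.

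Ndufb4, an accessory subunit of the membrane arm of complex I, was the extreme case. Its copy Ndufb4c, 390 bases at chr15:73809507-73809896 on the minus strand, was assigned 315, 546 and 553 expected counts, while Ndufb4 itself was assigned 307, 397 and 457. Neither set is whole, but the sums of the pair were the whole numbers 622, 943 and 1010. In RSEM-format TPM the copy was at 41.1, 36.5 and 28.4 and the gene at 9.07, 6.21 and 6.01, so the gene held 16.7 ± 1.89% of their sum. The sum was 42.4 ± 7.87 TPM. It adds values taken over unlike lengths, 390 bases for the copy and 971 bases for Ndufb4-201. The sum is therefore not the level of Ndufb4 with all shared reads, and gives it no place within complex I. In kallisto-format TPM the gene held 20.5 ± 2.61% of the sum.

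For Atp5g2 the counts of the pair were also whole in sum, 1630, 2610 and 2705, of which Gm10175 was assigned 398, 462 and 607. The RSEM format gave Atp5g2 75.2 ± 3.88% of the TPM of the pair and the kallisto format 9.91 ± 1.86%. In the kallisto format Gm10175 was at 29.2, 31.2 and 18.6 TPM, above Atp5g2 in each library. For Cox7c, a small subunit of complex IV at 101, 82.2 and 78.5 TPM, the copy Gm12338 covers 192 bases at chr11:75599763-75599954 on the minus strand and was assigned 64.1, 212 and 242 counts. Its deposited TPM was 86.9, 135 and 115, from a transcript shorter than the fragments measured, and the kallisto format put it at 1.71, 23.5 and 8.93 TPM. 

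For Cycs the copy Gm10053, 946 bases at chr19:24875686-24876631 on the plus strand, is annotated as protein-coding and differed from Cycs at 1 base over that length. It was assigned 455, 553 and 702 counts and Cycs 821, 1130 and 1457, with whole sums of 1276, 1683 and 2159. Gm10053, with the shorter transcript, was above Cycs in TPM in each library, at 13.5, 8.96 and 8.74, and Cycs held 33.6 ± 1.97% of the TPM of the pair. In the kallisto format Cycs held 22.5 ± 1.43%, with 2.03, 1.69 and 1.52 TPM against 7.13, 6.24 and 4.79 TPM for the copy. How many reads come from either locus of these pairs was not tested.

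**Figure D3:**
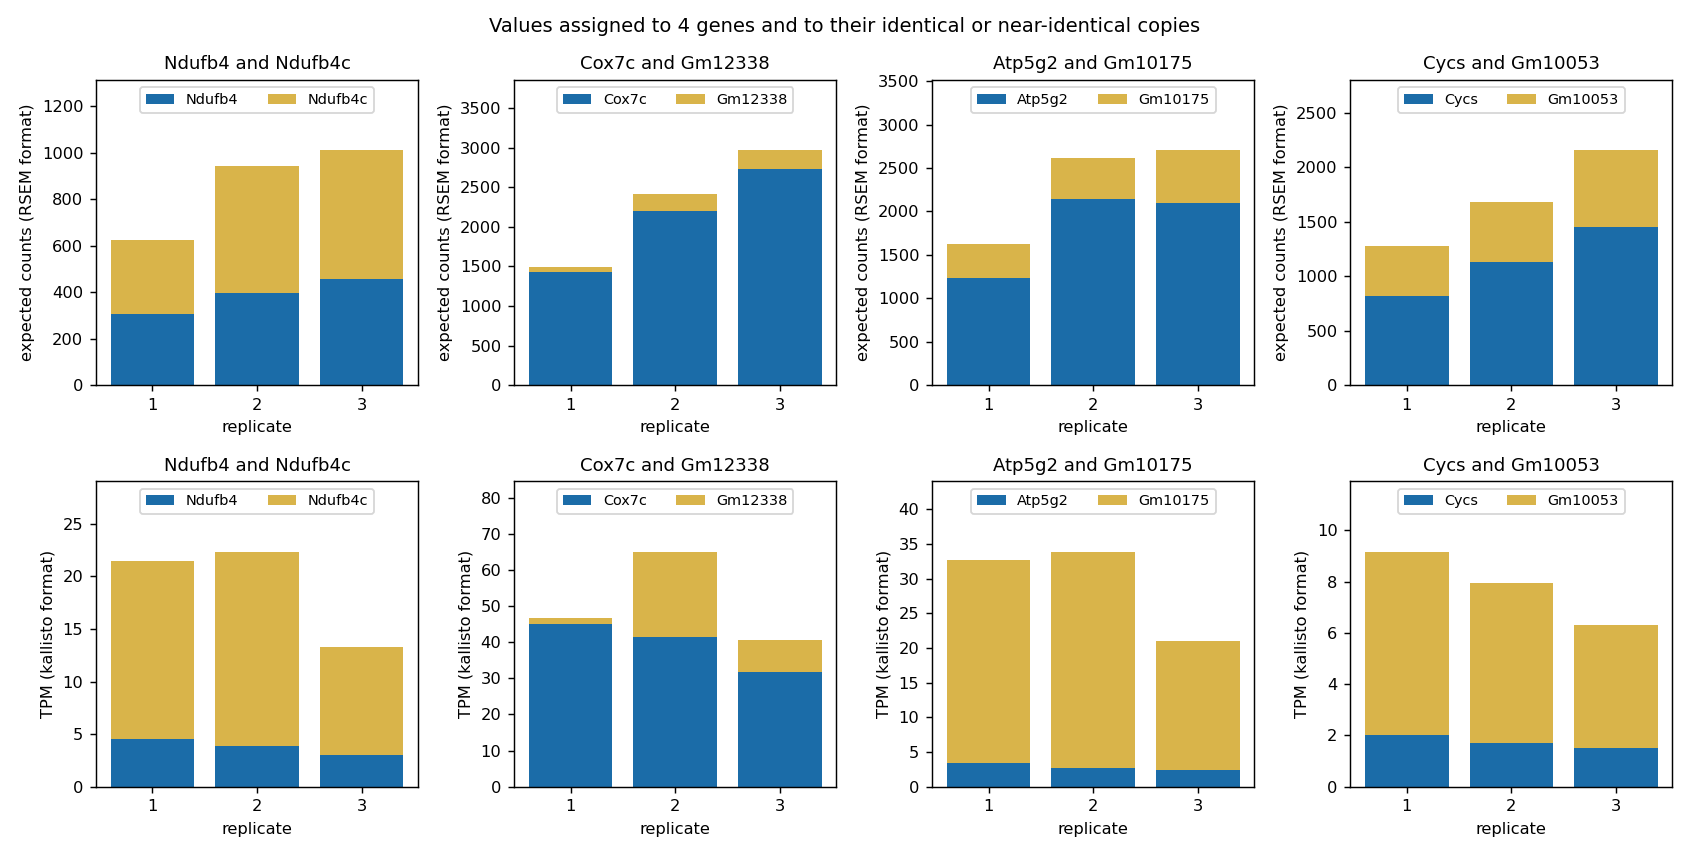
Stacked bars of the values assigned to each gene (blue) and to its identical or, for Cycs, near-identical copy (yellow) in replicates 1, 2 and 3, as RSEM-format expected counts (top) and kallisto-format TPM (bottom). Atp5g2 takes most of the counts of its pair in the upper row and little of the TPM in the lower row.

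Elsewhere the tables were related by a nearly constant factor. The kallisto-format level was a median of 0.436 of the RSEM-format level over the 76 detected members, with quartiles of 0.426 and 0.443, and 0.445 over 9010 detected nuclear protein-coding genes. After Atp5g2 (0.0613) the lowest members were Cycs (0.337) and Atp5b (0.372). The highest were Ndufab1 (0.604), the acyl carrier protein of complex I, Cox7b (0.592) and Ndufb4 (0.540).

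Most members were read as ordinary coding mRNA. Over the 76 detected members, the median share of TPM on transcripts annotated as protein-coding was 99.3 ± 0.310% (SD of the library medians, n = 3), and 55 were at 95% or more. In 12 members it was under 80%, in both table formats, and in 6 it was under 50%. The kallisto format put 14 members under 80%, Cox7b and Ndufb4 being added. Cox7b had 98.9% in the RSEM format and 55.1% in the kallisto format, and Ndufb4 92.8 and 57.0%. Ndufa5 was the lowest in the RSEM format with 20.6%, and had 21.7% in the kallisto format. Its leading transcript was Ndufa5-204, a 453-base transcript of 5 exons with no annotated coding sequence, at 22.0, 15.3 and 15.1 TPM. Ndufs4, a regulatory accessory subunit whose loss causes a mouse model of Leigh syndrome, had 26.4% on coding transcripts in the RSEM format. In the kallisto format it was the lowest, with 20.3%.

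For Ndufs4 the leading transcript was Ndufs4-202, annotated as a target of nonsense-mediated decay, with 56.8 ± 0.577% of TPM. It was at 8.35, 6.90 and 6.74 TPM, above the longest coding form Ndufs4-201 with 3.03, 2.07 and 1.96 TPM in every library. Atp5f1 (subunit b) was split between Atp5f1-201, coding, at 24.8, 16.7 and 15.3 TPM and Atp5f1-203, a nonsense-mediated decay form, at 21.6, 21.4 and 19.4 TPM. The coding form was the higher in replicate 1 and the lower in the other two. Atp5j (coupling factor 6) had 64.2 ± 3.95% on Atp5j-208, annotated as a retained intron, and Ndufab1 had 42.3 ± 5.28% on the retained intron form Ndufab1-205. Ndufc1, a small membrane arm subunit, had 46.9% on coding transcripts. Ndufa3, Cox5b, Ndufa10, Ndufa7 and Ndufb2 lay between 56.9 and 79.3%. These shares rest on dividing reads among overlapping annotated transcripts, and the annotated type was not tested.

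**Figure D4:**
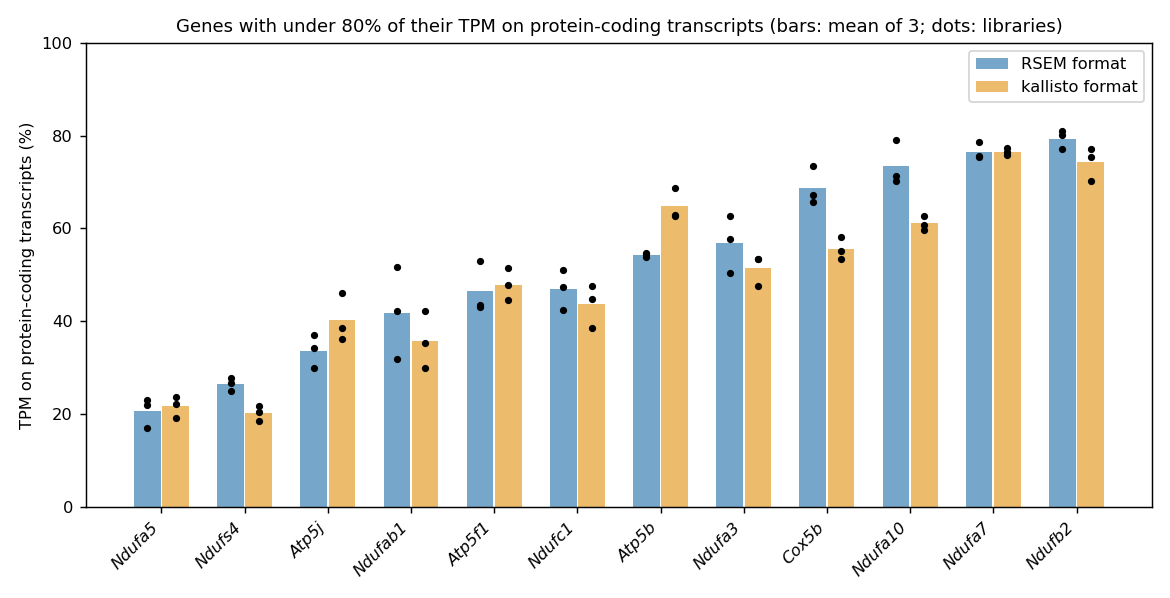
Share of TPM on protein-coding transcripts (%, from 0 to 100) for the 12 detected members under 80% in both table formats. Bars show the mean of 3 libraries in each format, with each library as a dot. Cox7b and Ndufb4, under 80% in the kallisto format alone, are not drawn. Ndufa5, Ndufs4, Atp5j, Ndufab1, Atp5f1 and Ndufc1 lie under 50% in both.

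Ndufv3 showed a choice between 2 coding forms. The short transcript Ndufv3-202, of 3 exons and 493 bases, was at 51.4, 41.7 and 35.0 TPM, and the long transcript Ndufv3-201, of 4 exons and 1582 bases, at 2.78, 2.36 and 2.07 TPM. The short form took 93.9 ± 0.730% of the gene's TPM. The kallisto format kept the same order, with 18.3 and 1.05 TPM.

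Members were short transcripts. The median length over the 76 detected was 697 bases, against 2598 bases over 9010 detected nuclear protein-coding genes, and 57 were under 1000 bases. Across the detected members Spearman's rho between length and mean TPM was -0.50, a description over genes that share the same 3 libraries, and it was -0.15 over the 9010 nuclear genes. It was -0.66 within complex I, -0.73 within complex III with cytochrome c, -0.13 within complex IV and -0.40 within ATP synthase. Among the longest members, Cycs as listed was at the low end and Atp5a1, on the other side, was among the higher ones.

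Promoter windows were compared for the 65 member symbols with an entry in RefSeq (GRCm38.p6), each 250 bases before to 50 bases after a start. Letters of 3 motifs were searched on both strands: GCGCANGCG for NRF1, CCGGAAG for ETS factors such as GABP, and AAGATGGCG for YY1. These factors are known from work on nuclear genes of the respiratory chain. The NRF1 letters were found in 19 of 65 member genes, or 28.6% of member windows, against 8.58% of the 21263 windows of protein-coding genes and 6.25% of all 32851 windows. The ETS letters were found in 14, or 20.0% of windows against 11.6 and 8.86%, and the YY1 letters in 7, or 10% against 1.83 and 1.40%. At least 1 motif was found in 33 of 65 genes, or 48.6% of member windows against 19.6% of those of protein-coding genes and 14.8% of all, and no member held all 3. Matches to the NRF1 letters on opposite strands can overlap one another. Most members were detected, beside 41.0% of all protein-coding genes, and windows of detected genes alone were not used as a background. The higher shares are therefore not shown to be particular to the members.

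Detected members with the ETS letters had a median of 76.9 TPM (14 genes) and those without 29.0 TPM (48 genes). For NRF1 the medians were 39.1 and 31.8 TPM, and for YY1 25.2 and 39.2 TPM. These medians are descriptions over genes, without a test. Windows were chosen to set a common form with both motifs (Cox6a1), the paralogues Cox8a and Cox8b, and Cycs, listed at a low level and holding NRF1 letters, side by side. They run from 250 bases before to 30 bases after the start, 5′ to 3′ on the gene's strand in GRCm38.p6, with motif matches in capitals.
Cox6a1 (chr5:115348929-115349208, minus strand): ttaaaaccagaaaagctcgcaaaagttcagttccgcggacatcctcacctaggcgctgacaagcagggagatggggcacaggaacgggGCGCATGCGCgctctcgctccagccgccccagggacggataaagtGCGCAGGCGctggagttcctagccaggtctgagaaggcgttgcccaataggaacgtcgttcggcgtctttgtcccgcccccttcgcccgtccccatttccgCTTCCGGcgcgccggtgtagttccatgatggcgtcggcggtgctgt
Cox8a (chr19:7217587-7217866, minus strand): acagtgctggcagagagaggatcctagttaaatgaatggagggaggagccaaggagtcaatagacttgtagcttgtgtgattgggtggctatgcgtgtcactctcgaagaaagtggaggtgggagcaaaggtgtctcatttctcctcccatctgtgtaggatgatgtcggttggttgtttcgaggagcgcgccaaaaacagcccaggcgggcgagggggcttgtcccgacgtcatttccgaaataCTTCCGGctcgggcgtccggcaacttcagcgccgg
Cox8b (chr7:140900417-140900696, minus strand): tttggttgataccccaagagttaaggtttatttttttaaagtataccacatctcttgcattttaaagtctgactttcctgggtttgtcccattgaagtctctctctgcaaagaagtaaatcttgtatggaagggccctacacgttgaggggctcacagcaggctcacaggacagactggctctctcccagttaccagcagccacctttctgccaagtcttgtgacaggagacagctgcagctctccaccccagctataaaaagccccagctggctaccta
Cycs (chr6:50566540-50566819, minus strand): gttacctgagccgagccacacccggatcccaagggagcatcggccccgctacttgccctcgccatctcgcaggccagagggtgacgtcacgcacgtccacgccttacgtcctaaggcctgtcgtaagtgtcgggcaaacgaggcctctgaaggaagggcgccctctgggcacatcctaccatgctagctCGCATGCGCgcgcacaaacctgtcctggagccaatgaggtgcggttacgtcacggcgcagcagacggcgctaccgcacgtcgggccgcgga
Cox6a1, at 91.1 ± 10.6 TPM, held 3 matches to the NRF1 letters, 2 of them overlapping, and 1 to the ETS letters, 16 bases before the start. Cox8a, at 113 ± 8.30 TPM, held 2 ETS matches, 1 of them across the start and 1 beyond the bases shown. No match lay in the window of Cox8b, which had 0 counts. Windows of abundant genes also lacked matches, among them Cox7c (87.2 TPM), Cox5a (71.6 TPM) and Cox7a2 (39.4 TPM). Neither window held a match in the pair Cox7a2 and Cox7a1, nor in Cox7b and Cox7b2. Cox6b1 held 1 ETS match and Cox6b2 none. Cycs, listed at 5.19 ± 0.851 TPM without its copy, held 1 NRF1 match. A match says only that these letters are present.

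The other genes of the pathway set the members in context. Complex II, encoded in the nucleus by Sdha to Sdhd, was detected in full (4 of 4) with a median of 36.9 ± 6.19 TPM, within the range of the 4 complexes above. Its highest gene, Sdha, the flavoprotein, was at 40.9 ± 4.17 TPM and its lowest, Sdhc, a membrane anchor, at 23.9 ± 2.07 TPM. Assembly factors were also mostly detected and were lower: 13 of 14 for complex I with a median of 2.83 ± 0.225 TPM, 5 of 6 for complex III with 4.72 ± 0.899 TPM, 17 of 18 for complex IV with 5.49 ± 0.669 TPM and 3 of 3 for ATP synthase with 4.80 ± 0.410 TPM. The highest of these was Cox17, a copper chaperone for complex IV, at 46.1 ± 5.59 TPM.

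Of the listed regulators 9 of 11 were detected, with a median of 3.78 ± 0.722 TPM. Yy1 was the highest at 7.74 ± 0.561 TPM, and Ppargc1a, a coactivator of mitochondrial biogenesis, was the lowest at 0.02 ± 0.01 TPM. Genes outside the naming rule were looked up after the members were known. Usmg5, a small membrane subunit of ATP synthase, was at 105 ± 22.0 TPM and Atpif1, the inhibitor of its ATP hydrolysis, at 138 ± 27.0 TPM. Cyct, the testis cytochrome c, was listed at 0. Ndufb1-ps, named as a pseudogene, was at 28.8 ± 8.73 TPM.

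The 13 subunits encoded in the mitochondrial genome were all detected, with a median of 311 ± 120 TPM. The highest was mt-Atp8 at 1482, 1991 and 3137 TPM, and the lowest mt-Co2 at 18.6, 23.03 and 12.6 TPM. Both extremes are uncertain. mt-Atp8 had 1440, 4132 and 8630 counts, far fewer than the 54926, 114761 and 245830 of mt-Co1, so its TPM rests on its length. The counts of mt-Co2 were not whole (399.17, 912.07 and 651.09), and copies of the mitochondrial genes were not searched for. The median SD of the 13 subunits between libraries was 0.65 in log2 CPM, beside 0.14 for the nuclear members. The RNA is cytosolic, and how far mitochondria were kept out of that fraction was not measured. A change in the level of these transcripts and a change in the mitochondria left in the fraction cannot be told apart.

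The members differed between the replicate libraries in a shared direction. On the log2 scale of library-scaled counts (CPM, scaled by TMM), with 77 members past the filter on low counts, replicate 3 was the lowest library for 68 of 77 members, beside 35.5% of the 12413 genes past the filter. Replicate 1 was the highest for 51 of 77, beside 33.0% of all genes. In TPM replicate 1 was the highest for 74 of 77 members, beside 72.0% of all genes. Replicate 3 less the mean of replicates 1 and 2 had a median of -0.19 over the members and 0.0023 over all genes. It was -0.20 for complex I, -0.17 for complex III with cytochrome c, -0.21 for complex IV and -0.23 for ATP synthase.

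Short nuclear genes as a class, members included, showed the same direction. Nuclear protein-coding genes of 500 to 1000 bases were lowest in replicate 3 in 67.7% of 803 cases, and in 83.1% of 449 cases among those with a mean TPM of at least 10. Of those of 4000 bases and over, 21.6% of 2676 were. The members of 500 to 1000 bases were lowest in replicate 3 in 42 of 48 cases. Length less effective length, a measure of fragment size, was 231, 215 and 216 bases in replicates 1, 2 and 3. Mitochondrial genome transcripts took 0.472, 0.635 and 1.03% of counts, and 11 of their 13 subunits were highest in replicate 3, with a median difference of 1.04 on the log2 scale; mt-Co2 and mt-Co3 were not. All 4 genes of complex II were lowest in replicate 3. The part of fragment size, length and mitochondrial RNA in the members' difference was not tested.

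**Figure D5:**
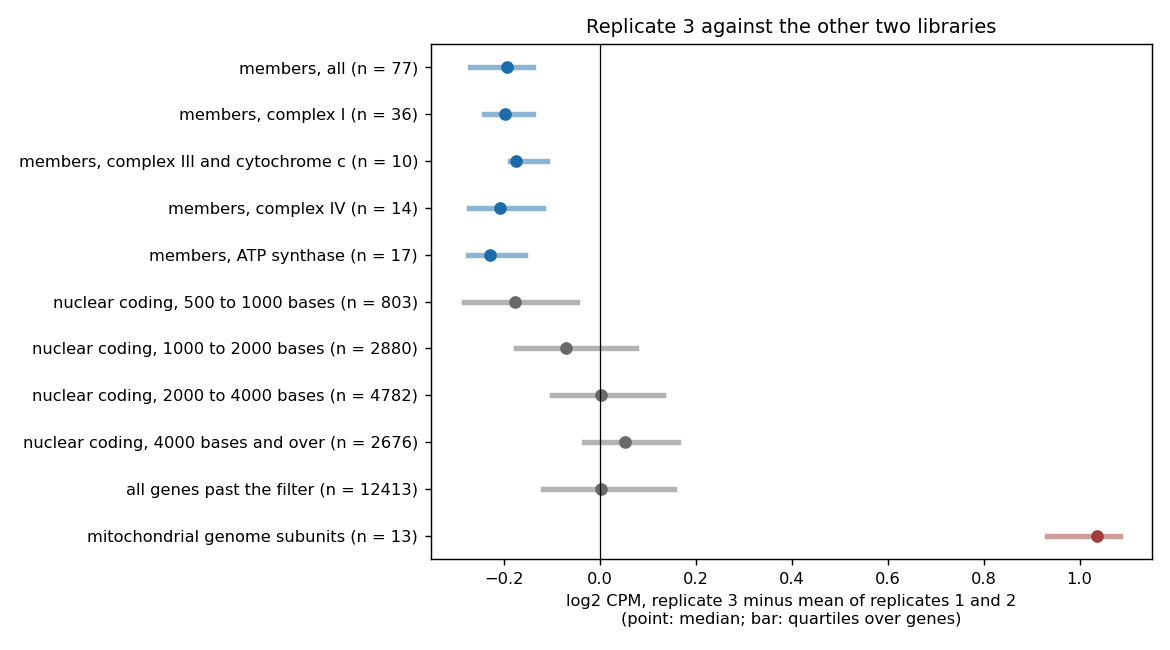
Difference of replicate 3 from the mean of replicates 1 and 2 in log2 CPM, as the median (point) and quartiles (bar) over the genes of each group. The members and the nuclear coding genes of 500 to 1000 bases lie below 0, and the 13 mitochondrial genome subunits lie near 1.

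Between libraries, the median SD of log2 CPM was 0.14 over the 77 members and 0.12 over all genes past the filter. Without replicate 3 it was 0.064 over the members, an SD of fewer libraries. Over all genes past the filter another measure of spread, the common biological coefficient of variation, also fell without replicate 3, from 0.145 to 0.109. It was 0.163 without replicate 1 and 0.161 without replicate 2. Over all 3 libraries the smallest SDs of log2 CPM were those of Ndufs1 (0.020), Ndufab1 (0.041) and Uqcrq (0.041). The largest were those of Ndufb11 (0.25), Cox5a (0.24) and Cox6a2 (0.23). Cox5a, a subunit of the matrix side of complex IV, was at 96.6, 58.6 and 59.6 TPM, replicate 1 standing above the other two. Ndufb11, a membrane arm subunit encoded on the X chromosome, was at 31.5, 23.7 and 18.9 TPM. Ndufs1 was at 16.5, 14.2 and 14.2 TPM.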

How the data were processed

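Ribosome-depleted RNA of 3 libraries of 1 group was analysed. Per the file headers, the authors deposited RSEM-format gene and transcript tables with expected counts (estimated reads, not whole), TPM as maximum likelihood and posterior mean estimates and lengths, and kallisto-format transcript tables with TPM. The assembly is mm10, per the labels. Versions of the upstream tools: not given in the sources used here. All 55536 gene identifiers matched GENCODE M21.

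Levels were compared in TPM within a format, as mean ± SD over 3 libraries, with a pseudocount of 0.1 TPM only in log2 ratios. Expected counts were rounded and scaled by TMM (edgeR 4.0.16 in R 4.3.3, filterByExpr, prior count 2, intercept only), with DESeq2 1.42.0 size factors as an alternative; the spread estimate was checked on simulated data. The common biological coefficient of variation was 0.145. Copies were found with BLAST 2.17.0 from the leading transcript of each member. Depth ran from 26318761 to 56290298 counts, and limits from 3 counts cover counting error only.

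Members and lists were chosen with earlier results of these data known. Named genes were the 3 highest and 3 lowest of each complex, paralogues, catalytic subunits, the extremes of spread and of the ratio between formats, and members under 80% on coding transcripts. The genes with identical or near-identical copies, the printed sequences and the length classes were chosen after seeing the data. A single member is not reported by name here.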

Additional observations from a re-analysis of the deposited data

How the results depend on the processing

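The count of detected members was 76 without any 1 library and with posterior mean TPM, 75 in the kallisto format, and 73 at a TPM of at least 5. In the kallisto format the median levels were 10.8, 17.2, 20.3 and 21.1 TPM for complexes I, III, IV and V. The share of nuclear protein-coding TPM taken by ATP synthase was 0.425%, below complex I (0.444%) and complex IV (0.449%). Rescaled to the total of nuclear protein-coding TPM the medians were 106, 175, 190 and 219, and over detected genes alone that of complex IV was 77.8 TPM. With expected counts in place of TPM, the members took 0.427% of nuclear protein-coding counts, and complexes I, III, IV and V took 0.119, 0.0470, 0.101 and 0.160%, since counts grow with length.

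The log2 ratio of Atp5g2 to Atp5g1 was 0.84 in the RSEM format and -1.94 in the kallisto format. Atp5g2 has an identical copy, whose part in this reversal was not tested. All other paralogue ratios kept their direction under the pseudocount of 1 TPM, the kallisto format and without each library. On log2(TPM + 1) the median SD between libraries over the members was 0.25, and the median differences of replicates 1, 2 and 3 from the other two were 0.41, -0.095 and -0.32, against 0.14, 0.048 and -0.19 on the log2 CPM scale. Alternatives chosen after seeing the data gave 0.21 for replicate 1 (unscaled CPM) and 0.015 for replicate 2 (rescaled to nuclear protein-coding TPM). Without 1 library the median SD ranged from 0.064 to 0.15, the lowest value being without replicate 3. The causes of these moves were not tested. The planned comparison of protein sequences was not run.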
